A study of Mus musculus with 12 samples.

Results

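Myotubes after 48 h of differentiation were set against myoblasts at 50% confluence, the latest and the earliest stage of a differentiation course, and the comparison was read across all genes. The members are the 3 arrays titled as 48 h tubes and the 3 titled as 50% blasts, 6 of the 12 arrays of the series. All arrays carry total RNA of C2C12, a single established mouse line of skeletal myoblasts, so no other genetic background is represented. Per the labels, the 48 h myotubes came from myoblasts at full confluence that were moved to low horse serum with insulin and transferrin, and the 50% myoblasts grew in DMEM with bovine calf serum. Cell density, serum, added insulin and transferrin, and time differ together between these groups and cannot be told apart. The other groups of the course, myoblasts at 95% confluence and myotubes at 24 h, also have 3 arrays each and entered the estimate of the spread. Replicates are numbered in the labels with no word on whether each came from its own culture. The p-values therefore describe only how these arrays spread, which may be technical.

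Skeletal myoblasts divide as single cells and leave the cell cycle when growth factors are withdrawn. The transcription factors of the MyoD family, working with MEF2 proteins, then switch on muscle genes, while Id proteins hold MyoD inactive in growing cells. Committed cells fuse into multinucleated myotubes that build sarcomeres, a calcium store, a neuromuscular receptor field and the enzymes that recharge ATP.

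Levels are taken as log2 intensities, on which a difference of 1 is a doubling. Whether the deposited scale is plain log2 or variance-stabilized is unknown, and folds rest on plain log2. Every difference is 48 h myotubes minus 50% myoblasts. Of 11883 genes tested with limma over all 12 arrays, 6710 (56.5%) passed at a Benjamini-Hochberg adjusted p under 0.05. Of these, 3153 (26.5%) rose and 3557 (29.9%) fell. These shares of all genes tested are the background for every list count below. They hold for the level filter described below and change with it. The median difference over all genes was -0.01, with quartiles of -0.26 and 0.21, and the median SE was 0.0691. A change of at least 2-fold was seen in 1328 genes (11.2%), with 666 up (5.6%) and 662 down (5.57%). The balance between the directions shifted with size. At 4-fold or more, 212 genes rose and 103 fell, at 8-fold or more 82 rose and 11 fell, and at 32-fold or more 17 rose and 3 fell. The 3 arrays of each group did not overlap in 7829 genes (65.9%), with 3708 higher (31.2%) and 4121 lower (34.7%) at 48 h. At the other end, the 95% confidence interval of the difference lay within 0.25 of 0 on the log2 scale in 3797 genes, 32% of those tested. To be kept, a probe had to exceed the array median on every array of a stage. This level filter kept 250 genes through the 48 h arrays alone, and 130 of these rose. It kept 190 through the 50% arrays alone, and 78 of these fell. The filter favours those directions, so these calls carry no support. They include the rises of Acacb, Casq1, Ckmt2, Dll4, Erbb3, Kcnn3, Mybpc1, Mybpc2, Myl2, Neb and Sln in the lists below. Where a gene had several kept probes, the one with the highest mean was used. Among the 3202 genes past the test with several probes, another probe gave a difference less than 50% as large, or of opposite sign, in 1925 genes, so sizes hold for the probe used. The values come with no call of detection, and Heyl, Myf6, Myh7, Myl6b, Nup210, Pygm, Rbfox1 and Rpl3l lay under the array median on every 50% array, so their differences are lower bounds where the signal there is background. In bulk RNA of this kind, fewer cells of a type and less RNA per cell cannot be told apart.

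**Figure D1:**
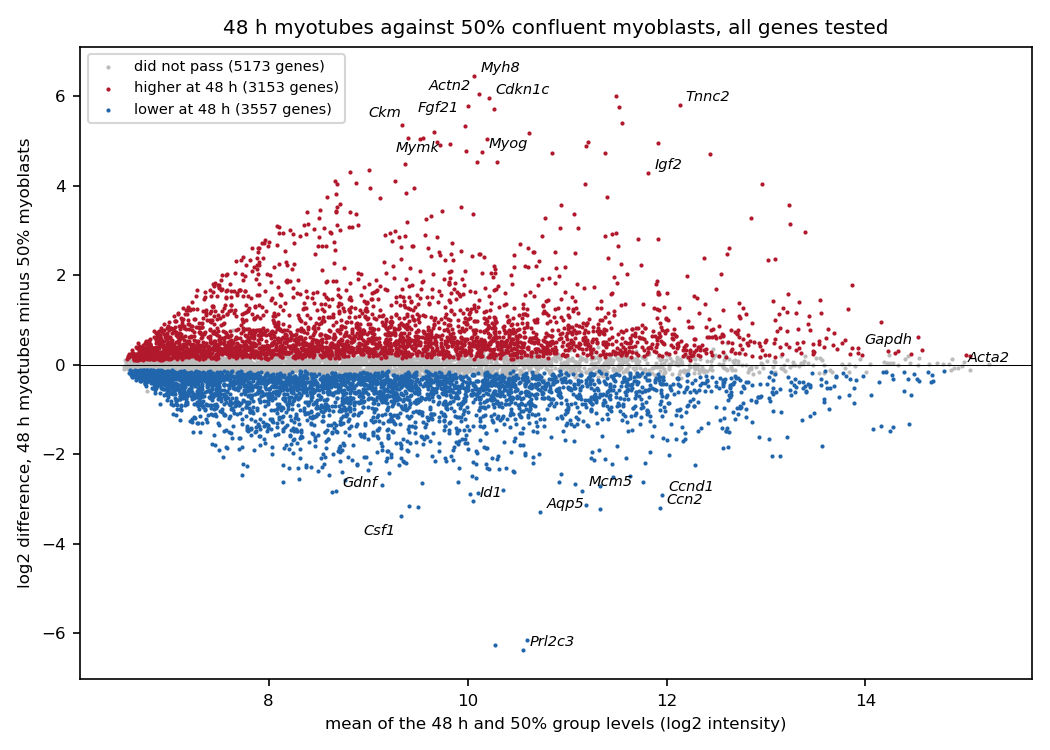
Each point is a gene, placed by its mean level over both groups (log2 intensity, x axis) and by its log2 difference, 48 h myotubes minus 50% myoblasts (y axis). The 3153 genes that rose reach 6.46 (Myh8) and the 3557 that fell reach -6.38 (Prl2c3), and outside Prl2c2, Prl2c3 and Prl2c4 the lowest value is -3.39 (Csf1).

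Replicates lay close together. Arrays correlated at r = 0.998 within the 48 h group and at 0.997 to 0.998 within the 50% group, against 0.911 to 0.923 between the groups. All 9 muscle fibre markers tested rose, with summed linear levels of 90682 to 95013 on the 48 h arrays, against 10665 to 12904 on the 50% arrays. Of the myoblast markers, Cdh15, Des, Itga7, Myod1 and Ncam1 rose, Met, Sdc4 and Vcam1 fell, and Pax7 and Myf5 lay below the level filter. Of the tested markers of other cells, those of fat, bone, cartilage and leukocytes gave 0 rises among 11, with 3 falls, and 0 of 4 nerve markers passed the level filter. Smooth muscle markers gave 1 rise and 2 falls among 5, tendon markers 1 rise (Scx) among 3, and endothelial markers 2 rises among 4. By contrast 3 of 4 tested fibroblast markers (Col1a1, Col3a1 and Dcn) rose while Pdgfra fell and Thy1 lay below the level filter, with sums of 8284 to 8642 on the 48 h arrays, against 1551 to 1824 on the 50% arrays. Whether these 3 come from other cells was not tested. One array stood out for the muscle genes. On array 1 of the 50% myoblasts each of the 20 genes with the largest rises read higher than on the other 2 arrays of that group, by a median of 0.34. Without that array the difference of the fast troponin C gene Tnnc2 was 6.04, against 5.81 with it.

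The contractile apparatus held the largest rise of all genes and several of the next. Myh8, the perinatal myosin heavy chain, had levels of 13.38, 13.17 and 13.35 on the 48 h arrays, against 6.95, 6.82 and 6.73 on the 50% arrays. The groups lie far apart, and this was the largest rise of all genes, 6.46 (SE 0.15, adjusted p = 2.00e-11) or 88.2-fold. Tnnc2, the calcium sensor of fast fibres, read 15.04, 15.12 and 14.96 on the 48 h arrays, near the highest value of any array, 15.25, and 9.69, 9.09 and 8.91 on the 50% arrays. Actc1, cardiac alpha-actin, which developing skeletal muscle also uses, read 14.51, 14.52 and 14.45 at 48 h, against 8.88, 8.31 and 8.26 at 50%. In both, the groups lie far apart. Actn2, an alpha-actinin that anchors actin filaments at the Z-disc, read 13.23, 13.08 and 13.09 at 48 h, against 7.33, 6.97 and 6.95 at 50%. Its difference was 6.05 (SE 0.15), while another of its 3 kept probes gave 0.10. Acta1, skeletal alpha-actin, was already high in the 50% myoblasts, though its mean was 8.55 at 95% confluence. Acta1 read 14.86, 14.83 and 14.77 at 48 h, against 12.06, 11.50 and 11.42 at 50%, a rise of 3.16 (SE 0.23, adjusted p = 2.27e-07).

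By structure, 13 of 16 thin filament genes rose and 2 fell, with a median difference of 3.81, against -0.01 over all genes. Of the 7 troponin genes tested 6 rose, up to 5.81, with Tnni2 at 5.77 and Tnnt3 at 5.71. The members that fell were the tropomyosin genes Tpm1 (-1.49) and Tpm3 (-1.48), and the mean of the kept Tpm3 probes gave 0.61. All 16 Z-disc genes tested rose, with a median of 2.76, among them Myoz2 (4.37), a calcineurin-binding Z-disc protein, Csrp3 (4.11) and Pdlim3 (4.04). A second kept Myoz2 probe gave 0.33, while the lowest probe of Csrp3 gave 2.85 and that of Pdlim3 4.04. In the list of the M-band, titin and their helpers 17 of 20 genes rose and 2 fell (median 2.06), led by Myom2 (5.18), which crosslinks thick filaments at the M-band, Unc45b (5.06), a chaperone of myosin, and Ttn (4.89), the giant spring protein titin. The kept probes of Ttn ran from 0.04 to 4.89 and those of Unc45b from 1.14 to 5.06.

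Myosin genes divided by type. Of 7 heavy chain genes 5 rose and 2 fell (median 0.37), but Myh4, Myh6 and Myh7 passed the level filter through the 48 h arrays alone. That favours a rise, so the count and the median carry no support. Myh1, an adult fast isoform, rose by 3.41, and the slow isoform Myh7, 1 of those 3, had a difference of 0.47. A second kept Myh1 probe gave 0.37. The nonmuscle chains Myh10 and Myh9 had differences of -0.63 and -0.47. Of 10 light chain genes 6 rose and 3 fell (median 1.14, or 0.41 with no filter on dim probes). The muscle chains Myl4 (4.72), Mylpf (4.05), Myl1 (2.96) and Myl6b (2.53) rose, and the chains Myl9 (-1.02) and Myl6 (-0.39), which work with nonmuscle and smooth muscle myosin, fell. A second kept probe gave 0.48 for Myl4 and -0.07 for Myl6b. The kept probes of Mylpf lay between 3.83 and 4.05 and those of Myl1 between 2.96 and 4.84.

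**Figure D2:**
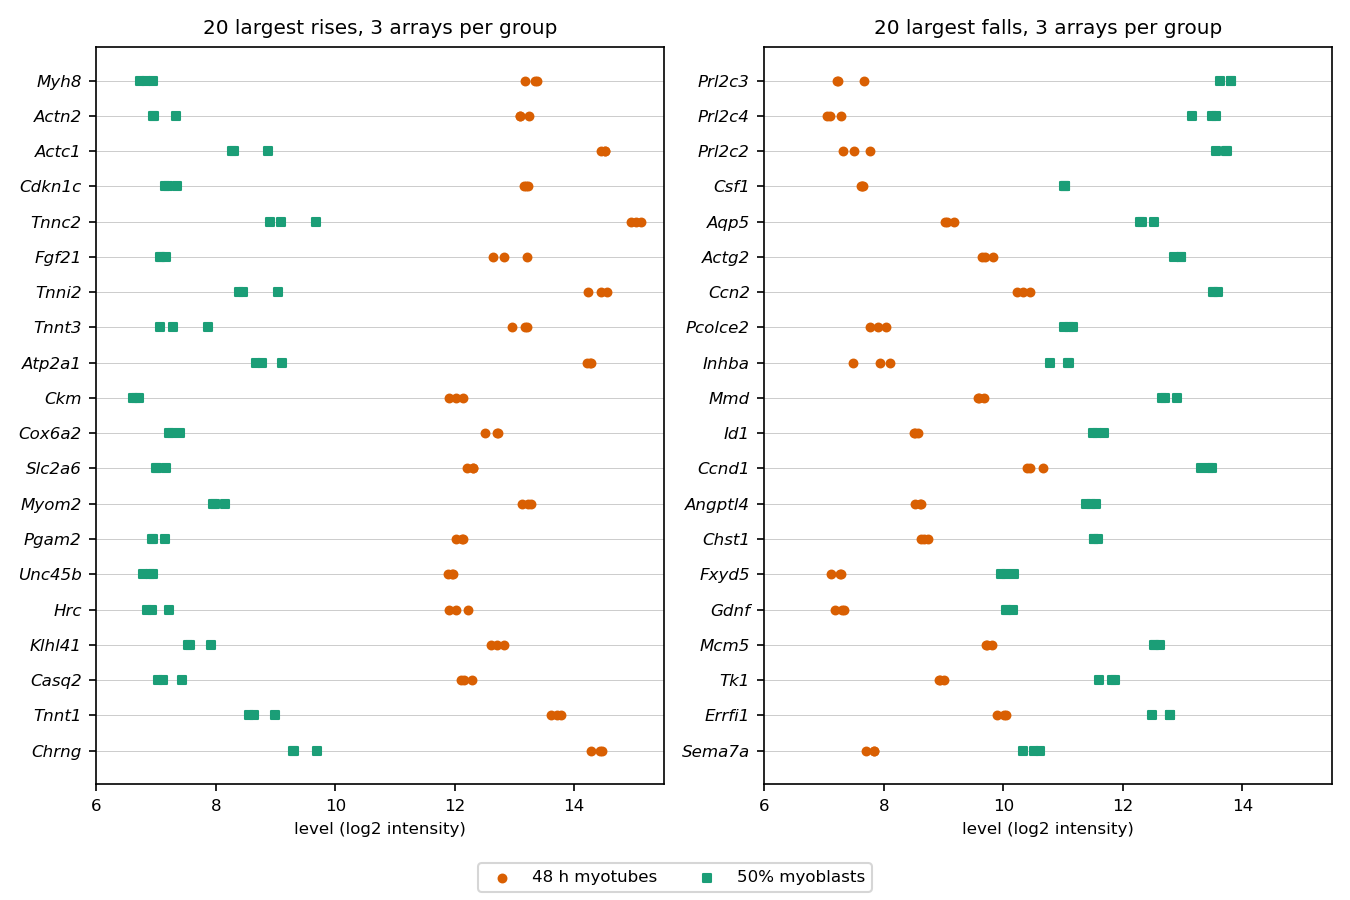
Levels (log2 intensity, x axis) of the 20 genes with the largest rises, left, and the 20 with the largest falls, right, with a circle for each 48 h array and a square for each 50% array. No gene's groups overlap, the rises run from 4.96 to 6.46, and in the left panel array 1 of the 50% group is the square farthest to the right in all 20 genes.

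The promoters of 3 of these genes are shown because each holds a motif tied to muscle transcription and its gene had the largest difference among those of its list that hold it. Sequences are RefSeq's for build GRCm38.p6, run 5′ to 3′ on the gene's strand from 250 bases before to 50 after the start, and carry the motif in capitals. Tnnc2 lies at chr2:164779685-164779984 on the minus strand and holds an E-box, CAGCTG or CAGGTG on either strand, the kind of site that MyoD family proteins bind. Actc1 lies at chr2:114052826-114053125 on the minus strand and holds a CArG box, the site of serum response factor. Myoz2 lies at chr3:123034938-123035237 on the minus strand and holds a MEF2 site. It also holds an E-box, CAGCTG, in lower case, since only the motif a promoter is shown for is in capitals.
Tnnc2: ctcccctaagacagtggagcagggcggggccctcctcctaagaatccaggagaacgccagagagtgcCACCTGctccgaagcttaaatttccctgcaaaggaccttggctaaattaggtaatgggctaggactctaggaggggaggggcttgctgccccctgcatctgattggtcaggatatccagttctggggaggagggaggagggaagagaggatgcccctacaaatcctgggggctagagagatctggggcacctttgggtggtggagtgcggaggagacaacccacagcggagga
Actc1: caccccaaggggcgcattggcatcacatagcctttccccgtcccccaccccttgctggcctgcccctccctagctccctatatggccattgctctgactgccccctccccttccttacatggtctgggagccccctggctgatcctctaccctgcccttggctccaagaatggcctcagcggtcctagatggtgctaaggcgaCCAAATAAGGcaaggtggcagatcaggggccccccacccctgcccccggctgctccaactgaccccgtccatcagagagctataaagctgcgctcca
Myoz2: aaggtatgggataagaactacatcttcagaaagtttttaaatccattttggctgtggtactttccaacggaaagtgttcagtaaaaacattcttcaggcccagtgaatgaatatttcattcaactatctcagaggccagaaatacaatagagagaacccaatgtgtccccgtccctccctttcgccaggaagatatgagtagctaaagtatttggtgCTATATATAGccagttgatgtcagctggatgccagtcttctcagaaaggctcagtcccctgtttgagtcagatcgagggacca

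A promoter was at hand for 9582 of the genes tested. An E-box was found in 29.9% of these, in 58.3% of 12 thin filament promoters, in 47% of the promoters of the 100 genes with the largest rises and in 29% of those of the 100 with the largest falls. A MEF2 site was found in 0.522% of all promoters, in 25% of 12 Z-disc promoters and in 6% of the 100 largest rises. A CArG box was found in 1.51% of all promoters and in 16.7% of the 12 thin filament promoters. The TATA box, TATAAA on either strand, was found in 8.52% of all promoters, in 20% of the 100 largest rises and in 10% of the 100 largest falls. The capitals mark letters in a window and not sites shown to be bound.

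Genes of the calcium store and of calcium release rose almost throughout, 19 of 20 with 0 falls and a median of 2.25. Of the rises, Casq1 and Sln passed the level filter through the 48 h arrays alone and carry no support. Atp2a1, the calcium pump of fast fibres, averaged 14.26 ± 0.03 at 48 h and 8.85 ± 0.23 at 50% (SD, n = 3 each), a difference of 5.40. Hrc (5.05), Casq2 (4.99) and Srl (4.78) code for proteins of the sarcoplasmic reticulum that bind calcium. The kept probes of Srl ran from 0.08 to 4.78, and Hrc and Casq2 had 1 kept probe each. Ryr1, the calcium release channel, read 12.46, 12.45 and 12.18 at 48 h, against 8.01, 7.76 and 7.73 at 50%. Tmem38a, a cation channel of the reticulum that sits in the list of the nuclear envelope, rose by 3.96.

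At the surface membrane, 11 of 13 neuromuscular junction genes rose and 1 fell (median 0.72). The acetylcholine receptor rose in 4 of 5 subunits tested. Chrng, the subunit of the embryonic receptor, read 14.46, 14.43 and 14.29 at 48 h, against 9.70, 9.30 and 9.30 at 50%, a rise of 4.96 with a larger SE (0.54) than most genes. That SE draws on the spread in all 4 stages, and the SD of Chrng was 0.09 at 48 h and 0.23 at 50%. Chrnd rose by 2.23, Chrnb1 by 1.53 and Chrna1 by 1.44, and Lrp4, the agrin receptor, by 1.97. Of 17 genes of the dystrophin complex and costamere 13 rose and 1 fell (median 1.68, or 0.69 with no filter on dim probes), including Itgb1bp2 (3.95), also called melusin, Ank1 (3.33), Sgca (3.20) and the membrane repair protein Dysf (2.91). Dmd itself lay below the level filter, with a highest group mean of 6.59. Of 7 genes of ion channels and pumps 3 rose and 1 fell (median 0.08). Of 15 muscle ubiquitin ligase and kelch genes 9 rose and 2 fell (median 1.22, or 0.15 with no filter on dim probes), with Klhl41 at 5.04, Asb2 at 4.32, Klhl40 at 3.16 and Trim54 at 3.12.

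Among the regulators, 12 of 17 genes of the MyoD family and its partners rose and 2 fell (median 0.45). Myog, myogenin, read 12.50, 12.68 and 12.40 on the 48 h arrays, against 7.92, 7.67 and 7.71 on the 50% arrays. The rise was 4.76 (SE 0.20, adjusted p = 1.82e-09), and a second kept probe gave 2.26. Myod1, which marks the committed myoblast, was well above the array median in both groups, with 10.64 ± 0.08 at 48 h and 9.89 ± 0.04 at 50% (SD, n = 3 each), and rose by 0.74. Mef2c rose by 2.96, with its 4 probes between 0.53 and 2.96, Hes6, a repressor that favours differentiation, by 2.88, and Myf6 by 0.16. The early factors Myf5 and Pax7 stayed close to the array median of 6.68 in every group, at most 6.62 for Myf5 and 6.54 for Pax7, and were not tested. No probe was named for Myh3, Mymx or Mki67, which are not analysed here.

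Of 13 inhibitors of myogenesis 3 rose and 6 fell (median -0.12). All 3 Id genes tested fell, by 2.25 to 3.05. Id1 read 8.51, 8.52 and 8.58 at 48 h, against 11.57, 11.69 and 11.50 at 50%, and Id3 read 7.04, 7.04 and 7.03 at 48 h, against 9.65, 9.42 and 9.67 at 50%. These groups do not overlap. Twist2 fell by 2.05, while Zeb1 rose by 1.61.

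The list of myoblast fusion genes gave 7 rises and 5 falls among 23 (median 0.05), beside 26.5% rises and 29.9% falls over all genes. Its rises were led by Mymk, myomaker, the membrane protein that muscle cells need to fuse. Mymk read 12.30, 12.35 and 12.21 at 48 h, against 7.58, 7.29 and 7.18 at 50%, a difference of 4.94 (SE 0.14). Ncam1 (3.06) and Cdh15 (1.71), adhesion molecules of muscle cells, rose, and Dock5 (-0.46) and Adam12 (-0.43) fell. Of 21 Notch pathway genes 10 rose and 1 fell (median 0.13, or 0.03 with no filter on dim probes and 1.51 over the 13 genes with a level of at least 7.5), among them the effectors Heyl (2.72) and Hey1 (2.47).

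**Figure D3:**
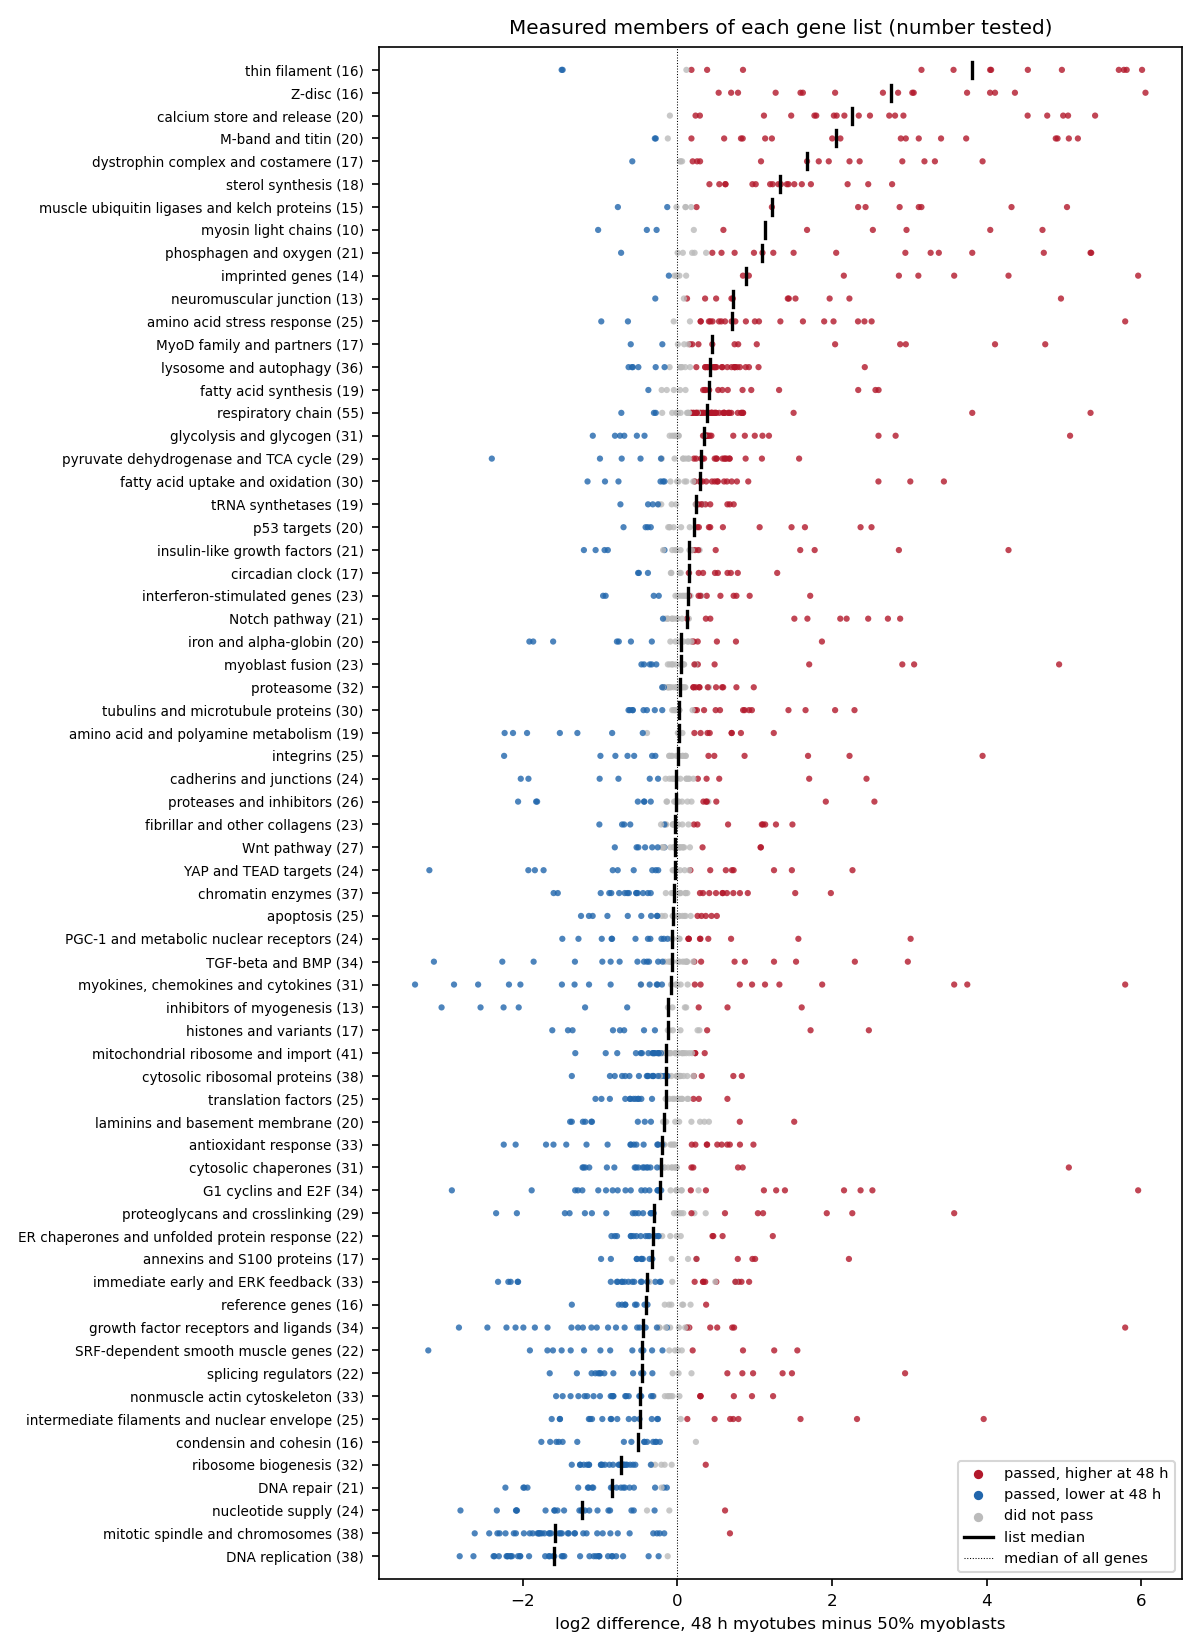
Log2 difference, 48 h myotubes minus 50% myoblasts (x axis), of every tested member of the lists with at least 10 tested genes, sorted by the list median (black bar), with red points higher and blue points lower at 48 h past the test and grey points not past it. Thin filament genes have the highest median (3.81) and DNA replication genes the lowest (-1.60), and the dotted line is the median of all genes, -0.01.

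Genes of cell division fell almost throughout. Of 38 DNA replication genes 37 fell and 0 rose (median -1.60). All 6 subunits of the MCM2-7 helicase, which unwinds DNA, fell, with differences of -2.81 to -2.03, and so did the 4 GINS, 5 RFC and 3 RPA genes tested. Mcm5 read 9.71, 9.81 and 9.72 on the 48 h arrays, against 12.52, 12.62 and 12.54 on the 50% arrays, a difference of -2.81 (SE 0.16, adjusted p = 2.85e-08). The licensing factors Mcm10 (-2.63) and Cdc6 (-2.38) and the flap nuclease Fen1 (-2.36) fell to a similar extent. Of 24 genes of nucleotide supply 21 fell and 1 rose (median -1.24), including Tk1 (-2.80), Tyms (-2.33) and Rrm2 (-2.08), which make thymidylate and deoxynucleotides. The rise was Mthfd2 (0.62), a mitochondrial folate enzyme.

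Of 38 genes of the mitotic spindle and chromosomes 37 fell and 1 rose (median -1.58). Survivin, Birc5, fell with a difference of -2.62, the mitotic kinases Cdk1 and Plk1 with -2.43 and -2.30, the checkpoint gene Mad2l1 with -2.33, and the topoisomerase Top2a with -1.98. Kif23 was the rise (0.68), and the mean of its kept probes gave -0.76. Condensin and cohesin genes fell in 15 of 16 (median -0.51) and DNA repair genes in 20 of 21 (median -0.84), both with 0 rises. Uhrf1, which guides DNA methylation after replication, had the largest difference among the repair genes, -2.22.

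The regulators of entry into the cycle moved both ways, with 9 rises and 18 falls among 34 genes (median -0.22). Ccnd1, cyclin D1, read 10.39, 10.44 and 10.67 at 48 h, against 13.31, 13.49 and 13.44 at 50%. Its relative Ccnd3, cyclin D3, rose and read 13.34, 13.49 and 13.45 at 48 h, against 12.01, 12.09 and 12.01 at 50%. The inhibitor genes went up. Cdkn1c, which codes for p57, read 13.20, 13.23 and 13.16 at 48 h, against 7.36, 7.20 and 7.15 at 50%, a rise of 5.96 (SE 0.13) or 62.2-fold. Cdkn1a, which codes for p21, started higher and read 14.24, 14.29 and 14.30 at 48 h, against 11.87, 11.95 and 11.90 at 50%, a rise of 2.37. Rb1, the retinoblastoma gene, rose by 2.16, while its relative Rbl1 had a difference of -1.28 and the cyclin E gene Ccne2 of -1.88. E2f2, an activator of cell cycle genes, rose by 2.52. Of 20 p53 targets 10 rose and 4 fell (median 0.21), with Gadd45a at 2.51 and Pmaip1 at 1.65. Apoptosis genes gave 5 rises and 9 falls among 25 (median -0.06).

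Promoters of cell cycle genes are shown for the motif that their list carried most often beside all promoters. Mcm5 lies at chr8:75109259-75109558 on the plus strand and holds 2 E2F cores (TTCCCGC or TTGGCGC on either strand, in capitals). Cdk1 lies at chr10:69352863-69353162 on the minus strand and holds 2 copies of the cell cycle homology region CHR (TTTGAA on either strand, in capitals). It also holds an E2F core, TTGGCGC, left in lower case.
Mcm5: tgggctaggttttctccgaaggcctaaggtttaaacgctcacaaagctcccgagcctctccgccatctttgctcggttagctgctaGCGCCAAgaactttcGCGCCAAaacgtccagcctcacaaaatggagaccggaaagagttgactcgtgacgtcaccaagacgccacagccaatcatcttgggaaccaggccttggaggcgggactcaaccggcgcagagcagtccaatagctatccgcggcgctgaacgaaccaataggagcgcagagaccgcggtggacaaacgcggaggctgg
Cdk1: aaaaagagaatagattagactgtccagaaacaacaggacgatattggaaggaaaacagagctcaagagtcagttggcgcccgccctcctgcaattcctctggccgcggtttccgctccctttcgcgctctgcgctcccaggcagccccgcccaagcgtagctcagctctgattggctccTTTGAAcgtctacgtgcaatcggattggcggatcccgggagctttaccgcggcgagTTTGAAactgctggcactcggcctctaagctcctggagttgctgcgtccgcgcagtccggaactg

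An E2F core was found in 53.3% of 30 DNA replication promoters, in 9.68% of 31 mitotic promoters and in 11.7% of all promoters. The CHR letters ran the other way, with 13.3% of the replication promoters, 74.2% of the mitotic promoters and 12.2% of all promoters. Both lists often held the CCAAT box, CCAAT on either strand, with 66.7% of the replication promoters and 71% of the mitotic promoters, against 38.8% of all promoters.

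Genes that make ribosomes also fell. Of 32 ribosome biogenesis genes 26 fell and 1 rose (median -0.73), led by Ncl (-1.36), Gar1 (-1.26) and Nop56 (-1.25), which act in the nucleolus. Cytosolic ribosomal proteins changed less, with 4 rises and 19 falls among 38 (median -0.14). With the mean of the kept probes 4 rose and 24 fell (median -0.25). Several read close to the highest value of any array, 15.25, such as Rplp1 with means of 15.12 at 48 h and 14.91 at 50%. Rpl3l, a muscle form of a ribosomal protein, rose by 0.83. Translation factors gave 3 rises and 12 falls among 25 (median -0.15), with Eif5a at -1.06. Of 31 cytosolic chaperones 5 rose and 16 fell (median -0.21), among the falls 6 of the 8 CCT chaperonin genes. Of 22 genes of the endoplasmic reticulum chaperones and unfolded protein response 4 rose and 14 fell (median -0.32), with Ssr1 at -0.85 and Herpud1 at 1.24.

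Of 36 lysosome and autophagy genes 23 rose and 6 fell (median 0.43), with the autophagosome protein gene Map1lc3a at 2.42 and acid glucosidase, Gaa, at 1.05. Of 32 proteasome genes 11 rose, 34.4% against 26.5% of all genes, and 2 fell (median 0.04), or 5 with the mean of the kept probes. Within it 5 of 6 ATPases of the regulatory particle rose, led by Psmc3 (0.99), against 2 rises and 1 fall among 11 genes of the core particle.

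Of 25 genes of the amino acid stress response 21 rose and 2 fell (median 0.70). Its leading member was Fgf21, a secreted metabolic hormone, which read 12.83, 13.21 and 12.65 at 48 h, against 7.17, 7.06 and 7.08 at 50%, a rise of 5.79 (SE 0.14) or 55.4-fold. Gpt2 (2.51), an aminotransferase, Slc6a9 (2.42), a glycine transporter, and Trib3 (2.34) also rose. One library stood apart for this list. Array 2 of the 48 h myotubes read highest of its group in 24 of the 25 genes, by a median of 0.27, and without it 19 genes rose and 2 fell (median 0.59). The 48 h arrays of Trib3 show it, 10.76, 11.45 and 10.61, against 8.61, 8.64 and 8.55 at 50%. Phgdh, the entry enzyme of serine synthesis, fell (-0.64). Of 19 tRNA synthetases, several of which are targets of this response, 9 rose and 4 fell (median 0.24), led by Mars1 (0.73). Array 2 of the 48 h group read highest in 14 of the 19 tRNA synthetases, and without it 6 rose and 5 fell (median 0.16). Over all genes tested array 2 read highest of its group in 37.8%, the share to set beside both counts.

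In energy metabolism muscle isoforms were among the largest rises, and smaller rises were widespread. Of 21 genes of the phosphagen system and oxygen supply 15 rose and 1 fell (median 1.10). Ckm, muscle creatine kinase, read 12.02, 12.13 and 11.90 at 48 h, against 6.72, 6.61 and 6.67 at 50%, where it lay close to the array median. Its rise was 5.35 (SE 0.11), and the brain isoform Ckb rose by 3.28. Mb, myoglobin, rose by 4.74. Of 55 respiratory chain genes 41 rose and 3 fell (median 0.39). Of these, the muscle isoforms Cox6a2 (5.34), Cox8b (3.81) and Cox7a1 were the only members past 2-fold, and complex I rose in 20 of 22 genes, none by more than 0.85. Genes of the mitochondrial ribosome and import gave 3 rises and 15 falls among 41 (median -0.14).

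Of 31 glycolysis and glycogen genes 16 rose and 6 fell (median 0.35). The muscle isoforms Pgam2 (5.08), Pfkm (2.82) and Pygm (2.60) rose, and the glucose transporter Slc2a1 (-1.09) and the widely expressed isoform Pgam1 (-0.81) fell. Another sugar transporter, Slc2a6, read 12.30, 12.31 and 12.21 at 48 h, against 7.16, 6.99 and 7.01 at 50%, and ranked among the 20 largest rises. Genes of pyruvate dehydrogenase and the TCA cycle gave 17 rises and 5 falls among 29 (median 0.31), and Pdk4, a kinase that blocks pyruvate dehydrogenase, fell by 2.40. Fatty acid uptake and oxidation gave 17 rises and 6 falls among 30 (median 0.29), led by Acsl6 (3.45), Fabp3 (3.01) and Acsl3 (2.60). Of 24 PGC-1 and nuclear receptor genes 9 rose and 11 fell (median -0.07), among them Prkag3 (3.02), a muscle subunit of AMP-activated kinase, and Ppargc1b (1.57).

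Sterol synthesis was the only list besides the Z-disc with more than 5 tested genes in which every one rose, 18 of 18 with a median of 1.32. The rises lay between 0.42 and 2.78 and covered steps from mevalonate to cholesterol, including Mvd (2.78), Fdps (2.47), Nsdhl (2.20) and Cyp51 (1.73). Mvd, mevalonate diphosphate decarboxylase, read 10.59, 10.56 and 10.73 at 48 h, against 7.92, 7.91 and 7.72 at 50%. Of 19 fatty acid synthesis genes 13 rose and 1 fell (median 0.41), with the desaturase genes Scd1 and Scd2 at 2.60 and 2.34. The Mvd promoter is shown for its 2 CCAAT boxes (in capitals, on opposite strands), at chr8:122443373-122443672 on the minus strand.
Mvd: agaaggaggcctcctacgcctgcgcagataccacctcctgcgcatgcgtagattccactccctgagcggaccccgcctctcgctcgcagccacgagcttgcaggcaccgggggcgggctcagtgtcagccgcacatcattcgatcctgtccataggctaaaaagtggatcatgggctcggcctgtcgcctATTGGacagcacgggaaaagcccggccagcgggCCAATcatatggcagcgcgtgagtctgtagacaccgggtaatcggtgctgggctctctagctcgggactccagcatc

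A CCAAT box was found in 93.3% of 15 sterol synthesis promoters, against 38.8% of all promoters. The core of the sterol response element, CACCCCA on either strand, was found in 6.67% of them, against 8.11% of all promoters.

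Other metabolic lists were mixed. Antioxidant genes gave 10 rises and 15 falls among 33 (median -0.19). The largest falls were Gpx1 (-2.24), Gclm (-2.09), Srxn1 (-1.70) and Gsto1 (-1.60), and 5 of 6 glutathione and thioredoxin targets of NRF2 fell, while the glutathione transferase Gstm2 rose by 0.98. Amino acid and polyamine genes gave 8 rises and 7 falls among 19 (median 0.02), with Ass1 (-2.23) and Srm (-2.12), spermidine synthase, lowest. Iron genes gave 6 rises and 7 falls among 20 (median 0.05), with the exporter Slc40a1, ferroportin, at 1.87 and the ferritin light chain Ftl1 at -1.60.

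Secreted signals and receptors moved both ways. Igf2, a growth factor that muscle cells make during differentiation, read 13.97, 13.94 and 13.96 on the 48 h arrays, against 9.89, 9.63 and 9.50 on the 50% arrays, a rise of 4.28 (SE 0.26) or 19.5-fold. Its clearance receptor Igf2r rose by 2.87, and the binding proteins Igfbp5 and Igfbp7 had differences of 1.78 and -1.21. The insulin-like growth factor list as a whole gave 8 rises and 5 falls among 21 (median 0.16). Of 14 imprinted genes 8 rose and 1 fell (median 0.89, or 0.04 with no filter on dim probes), with Cdkn1c and Igf2 above, Dcn at 3.58 and Mest at 3.12.

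Ligands and receptors of growth factors mostly fell, 20 of 34 with 7 rises (median -0.45). Gdnf, a neurotrophic factor, read 7.18, 7.29 and 7.33 at 48 h, against 10.04, 10.07 and 10.16 at 50%. Fgf7 (-2.45), Epha2 (-2.21) and Hbegf (-2.09) fell as well. Immediate early genes and feedback regulators of ERK gave 9 rises and 20 falls among 33 (median -0.39), with Dusp5 (-2.32) and Dusp4 (-2.15) among 6 of 7 dual specificity phosphatases that fell. Of 24 YAP and TEAD targets and partners 8 rose and 10 fell (median -0.03). The matricellular genes Ccn2 (-3.21) and Ccn1 (-1.73) were among the falls, and the transcription factor Tead4 (2.27) led the rises. In the TGF-beta and BMP list 8 of 34 genes rose and 13 fell (median -0.07), with the extracellular BMP and activin antagonists Chrd (2.98) and Fst (2.30) up and another BMP antagonist, Grem1 (-2.26), down. Inhba, a subunit of activin, read 8.10, 7.49 and 7.93 at 48 h, against 10.78, 11.10 and 11.08 at 50%. Of 27 Wnt pathway genes 3 rose and 7 fell (median -0.03).

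Of 31 myokines, chemokines and cytokines 10 rose and 14 fell (median -0.08). Csf1, the macrophage growth factor, had the largest fall after the proliferins Prl2c2, Prl2c3 and Prl2c4, with 7.63, 7.65 and 7.62 at 48 h, against 11.02, 11.02 and 11.03 at 50%. Its arrays lay close together within each group. Among 10 chemokines 5 fell and 1 rose, with Cxcl1 at -2.57 and Ccl7 at -2.18. Fndc5, the precursor of irisin, rose by 3.75. Interferon-stimulated genes gave 9 rises and 4 falls among 23 (median 0.14) and clock genes 9 rises and 3 falls among 17 (median 0.16), led by Igtp (1.72) and Dbp (1.29).

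The 3 largest falls were of 4 tested proliferin genes, prolactin relatives first described in growing mouse cells. Prl2c3 read 7.23, 7.21 and 7.66 at 48 h, against 13.63, 13.81 and 13.81 at 50%, and Prl2c4 and Prl2c2 had differences of -6.26 and -6.15. The remaining member, Prl2c5, had a difference of -0.18 and lay near the array median in both groups. These genes are near-identical copies, so a probe of one can also read another, and these values are not independent. The next falls were of varied function. Aqp5, a water channel, read 9.06, 9.18 and 9.03 at 48 h, against 12.52, 12.29 and 12.32 at 50%, and Mmd, a membrane protein of the progestin receptor family, read 9.57, 9.68 and 9.60 at 48 h, against 12.66, 12.71 and 12.90 at 50%. Pcolce2 (-3.19), an enhancer of collagen processing, Chst1 (-2.87), a sulfotransferase, Fxyd5 (-2.84), a regulator of the sodium pump, Errfi1 (-2.71), an inhibitor of the EGF receptor, and Sema7a (-2.69), a semaphorin, also ranked among the 20 largest falls. Angptl4 (-2.89) did too, but a second kept probe gave -0.14.

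The nonmuscle cytoskeleton fell while microtubule genes divided. Of 33 nonmuscle actin cytoskeleton genes 6 rose and 20 fell (median -0.48), among the falls the formin Diaph3 (-1.57), the nonmuscle alpha-actinin Actn1 (-1.38) and the filamin Flna (-1.28). Actb, beta-actin, had a difference of -0.67, with its probes between -1.77 and 1.78. Of 22 smooth muscle genes that depend on serum response factor 4 rose and 14 fell (median -0.45). Actg2, smooth muscle gamma-actin, read 9.69, 9.82 and 9.64 at 48 h, against 12.98, 12.98 and 12.85 at 50%, whereas Acta2, smooth muscle alpha-actin, averaged 14.95 ± 0.06 at 48 h and 14.98 ± 0.07 at 50% (SD, n = 3 each). The Acta2 difference was -0.03, with a 95% confidence interval of -0.14 to 0.08, at levels close to the top of the arrays. Tubulin and microtubule genes gave 13 rises and 8 falls among 30 (median 0.03), with Map4 (2.29), Map2 (2.04), Akap6 (1.66), a scaffold of the muscle nuclear envelope, and Tubb6 (1.44) up. In the list of intermediate filaments and nuclear envelope 8 of 25 genes rose and 16 fell (median -0.49). Des, desmin, rose by 1.59 and Vim, vimentin, had a difference of -0.85. Of 7 nucleoporin genes 6 fell, while Nup210 rose by 2.32.

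Matrix genes showed no common direction. Of 23 collagen genes 8 rose and 5 fell (median -0.02), with Col6a2 (1.49), Col6a1 (1.28) and Col1a1 (1.14) up and Col8a1 (-1.01) down. Laminins and other basement membrane genes gave 2 rises and 9 falls among 20 (median -0.17). Lama2, the laminin chain of the muscle fibre, rose by 1.51, while Thbs1 (-1.39) and Nid1 (-1.36) fell. Proteoglycans and crosslinking enzymes gave 7 rises and 15 falls among 29 (median -0.30, or -0.03 with no filter on dim probes). The small proteoglycans Dcn (3.58) and Ogn (2.26) rose, and Has2 (-2.34), a hyaluronan synthase, and Lox (-2.07), which crosslinks collagen, fell. Proteases and their inhibitors gave 6 rises and 7 falls among 26 (median -0.01), with Timp1 (-1.81) and Timp3 (-1.82) lower. Of 25 integrins and partners 6 rose and 7 fell (median 0.00). Itga7, the laminin receptor of muscle, rose by 2.23, and Itga3 had a difference of -2.24. Cadherin and junction genes gave 5 rises and 6 falls among 24 (median -0.01), with Cdh13 (2.45) up and the gap junction gene Gja1 (-2.02) down. Annexins and S100 proteins gave 5 rises and 9 falls among 17 genes (median -0.32, or -0.05 with no filter on dim probes), and Anxa11 rose by 2.22.

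In the nucleus, chromatin enzymes gave 12 rises and 15 falls among 37 (median -0.04). Dnmt1, the maintenance DNA methyltransferase, and Ezh2, the histone methyltransferase of Polycomb, had differences of -1.60 and -0.88. Hdac11 rose by 1.99 and Smarcd3, a muscle subunit of the SWI/SNF remodelling complex, by 1.53. Ezh1 had a difference of 0.11 that did not pass, with a 95% confidence interval of -0.02 to 0.24. Of 17 histone and chromosomal protein genes 3 rose and 8 fell (median -0.12), with H2ax (-1.62) and H2az1 (-1.41) lower and H2bc4 (2.48) and H1f2 (1.72) higher.

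Splicing regulators gave 6 rises and 13 falls among 22 (median -0.45). Ptbp1, which represses muscle and neural exons, fell by 1.65 and Mbnl1 by 1.30. All 3 SR factors tested fell, Srsf1 by 1.11. Rbfox1, a splicing factor of muscle and nerve, read 9.68, 9.57 and 9.49 at 48 h, against 6.67, 6.62 and 6.61 at 50%, which lies below the array median. Its measured difference, 2.95, passed the test. Rbm38 rose by 1.48.

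Genes commonly used to scale expression were not all level. Of 16 such genes 1 rose and 9 fell (median -0.40), beside 26.5% rises and 29.9% falls over all genes, so passing the test is not particular to them. Rplp0 had the largest difference, -1.36, followed by Tfrc (-0.76) and Rpl13a (-0.71). A second kept Rplp0 probe gave -0.22. With the mean of the kept probes 2 of these genes rose and 9 fell (median -0.19). Hprt read 11.26, 11.36 and 11.46 at 48 h, against 11.91, 12.04 and 12.14 at 50%, and Tbp had a difference of -0.53. Gapdh rose by 0.37 (SE 0.06). Ppia differed by -0.11, with a 95% confidence interval of -0.25 to 0.04.

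The route between both ends was not always direct. Acta1 had mean levels of 11.66 at 50% confluence, 8.55 at 95% confluence, 14.41 at 24 h and 14.82 at 48 h, so the growing myoblasts lay above the confluent ones. The same order of the myoblast stages held for 17 of the 20 genes with the largest rises, and all 20 were higher at 48 h than at 95% confluence. Most of the difference was present at 24 h in 18 of the 20 rises and in 12 of the 20 falls. Medians of thin filament genes, set against 50% myoblasts, were -0.20 at 95% confluence, 2.51 at 24 h and 3.81 at 48 h. DNA replication genes stood at -0.26, -0.87 and -1.60 and mitotic genes at -0.08, -0.56 and -1.58. Sterol synthesis had most of its difference by 24 h, with medians of 0.49, 1.20 and 1.32. After 24 h members of the sterol list moved both ways. Nsdhl averaged 11.01 at 24 h and 10.35 at 48 h, and Mvd 10.06 and 10.63. Ribosome biogenesis had most of its difference already at 95% confluence, with medians of -0.46, -0.72 and -0.73. These steps share the 50% arrays and were not tested. Array 3 of the 95% group varied most of all arrays, with a residual SD of 0.24, against 0.0705 to 0.158 on the others.

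**Figure D4:**
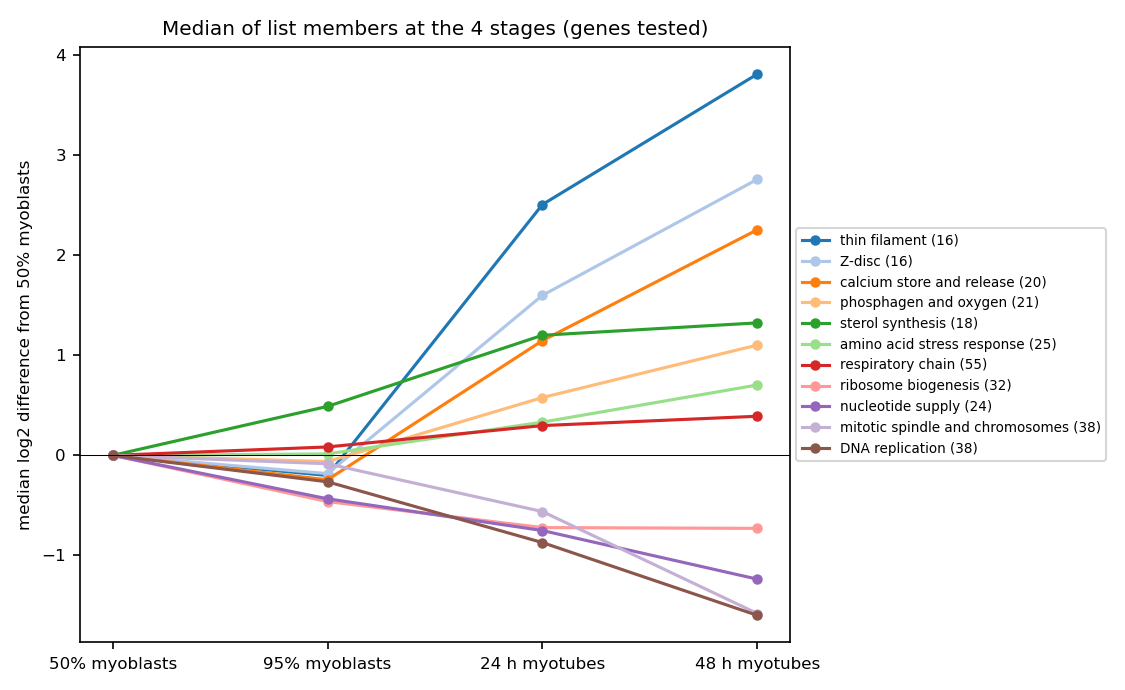
Median log2 difference from 50% myoblasts (y axis) of the tested members of 11 lists at the 4 stages (x axis), each line a list with its number of genes. Thin filament genes end at 3.81 and DNA replication genes at -1.60. The sterol synthesis median is nearly flat between 24 h (1.20) and 48 h (1.32), while members of that list moved both ways.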

How the data were processed

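Total RNA of 12 C2C12 samples, labelled as biotinylated cRNA, was hybridised to Illumina arrays, and RMA and lumi are named in the submitters' processing notes with no role or version. The values used were the authors' deposited normalized signal, taken as log2 intensities. Whether the scale is plain log2 or variance-stabilized is unknown, so differences of dim genes may be understated. A deposited table of signal before normalization was not used, since its 24 columns of per-sample values match no sample's labels. Of 45281 probes, 34885 had 1 gene symbol. Probes had to exceed the median of the array (6.68) in every replicate of some stage, and the kept probe with the highest mean stood for each gene. The fit, limma 3.58.1 in R 4.3.3 (lmFit, eBayes), took the mean of each of the 4 stages over the 12 arrays, and all adjusted p-values are Benjamini-Hochberg over the 11883 genes, 2-sided. The number of arrays limits the precision. The code was tested on simulated data. Deviations of same-numbered arrays of the compared groups correlated weakly (r of 0.06, -0.03 and 0.18), against -0.17 to 0.11 for arrays of different number. Numbers were not used as pairs, and whether they mark pairs is not known.

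The comparison, the 69 gene lists and the marker lists were chosen with earlier results of these data known, and lists are described by counts and medians without a test of their own. Genes named are the 20 largest rises and falls without overlap, up to 4 members per list in its main direction and up to 2 in the other, a fixed set of muscle, cell cycle and scaling genes, and markers. Promoters and positions come from RefSeq's table for GRCm38.p6, matched by symbol. Alternatives covered the filter, probe choice, variance model, array weights, centring, a replicate block and leaving out arrays.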

Additional observations from a re-analysis of the deposited data

How the results depend on the processing

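Over all alternatives the number of genes past the test lay between 5646 and 7465, against 6710 of 11883 tested. The lowest came with a level of at least 7.5 in a group, where 7781 genes were tested. The highest came with array weights, where 11883 were tested. With no filter on dim probes 3169 genes rose and 3533 fell among 19057 tested. The share past the test, 56.5% with the filter used, was thus higher with the stricter filter and lower with none. Leaving out each of the 6 compared arrays in turn gave 6171 to 6371 genes past the test, and leaving out array 3 of the 95% group gave 7267. Genes past the test under both settings kept their direction under each alternative, except that with the mean of the kept probes 6444 of 6454 did. Centring arrays on bright probes turned the share of rises among calls to 51.9%, against 47%. A test against a floor of 2-fold called 779 genes, with 416 up and 363 down, against 1328, 666 and 662. Whether numbers shared by samples mark pairs is not known. With a replicate block 6721 genes passed, 6604 of them also without it. With the mean of the kept probes 4 named genes turned direction: Tpm3 (0.61), Kif23 (-0.76), Tnfrsf10b (0.0103) and Actb (0.10), and the cause is probes that disagree. The calls of Acta2, Ezh1 and Mgp, and of others with small differences, 19 of 396 genes named by the rule in all, changed under at least 1 alternative. The same mean gave medians of 1.56 for the calcium store, 2.24 for the Z-disc and -1.29 for DNA replication. With no filter on dim probes the medians of glycolysis and of growth factor genes were 0.09 and -0.26, and with a level of at least 7.5 those of growth factor genes, the MyoD family, imprinted genes and myosin heavy chains were -0.97, 0.91, 2.51 and 1.47. The planned normalization of the unmatched table was not run. Signal close to the array median limits what can be said of dim genes. Of 356 genes below the median at 50%, 229 rose. Such genes could pass the level filter only through another stage, which favours rises, so this count carries no support.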

Other observations

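Array 1 of the 50% myoblasts stood apart from its group in more genes than the leading muscle ones, and not always toward the myotubes. Among the 3153 genes that rose it read highest of the 3 arrays of its group in 48% of genes, and among the 3557 that fell in 25.1%, against 34.7% over all genes. It read highest in 14 of 16 Z-disc genes and 12 of 16 thin filament genes, and in 8 of 38 DNA replication genes and 7 of 38 mitotic genes. It also read highest in lists with more falls than rises, in 12 of 17 annexins and S100 proteins, 10 of 17 histone genes, 20 of 41 genes of the mitochondrial ribosome and import and 17 of 38 cytosolic ribosomal proteins. The shift was a median of 0.03 among the genes that rose and -0.04 among those that fell, set against the mean of the other arrays. Some lists shifted more, by 0.31 for thin filament, 0.18 for Z-disc and -0.11 for nucleotide supply genes. These shifts were small beside the median group differences of 3.81, 2.76 and -1.24. In the respiratory chain the array read highest in 39 of 55 genes, by a median of 0.12. That is not small beside the median group difference of 0.39. Replicates of a group carry no order, and their source was not tested.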
